A study of Mus musculus with 20 samples.

Results

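The Ifi200 genes are a cluster of interferon-inducible genes on mouse chromosome 1, and 6 of them were examined: Ifi209, Mndal, Aim2, Ifi204, Ifi207 and Ifi205. They were taken as the probe sets whose platform gene symbol is exactly one of these names, and each gene had 1 such probe set, so that 6 of the 22180 genes with a probe set of a single symbol are described. All 6 passed the filter on dim genes and were among the 16638 genes tested, Ifi204 only through the group where it was highest. The genes had been chosen by their genotype differences in these data, so their genotype differences are given as a description with no p-value. Differences between WT populations were tested, on WT arrays that the choice of genes had also used.

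The data are 20 whole-transcript expression arrays of bone marrow cells from female mice on a C57BL/6 background, hybridised with labelled cDNA amplified from 1 to 5 ng of RNA. The mice were WT or CreER-Rptor-flox/flox, here called Rptor; Rptor encodes Raptor, the scaffold of the growth-regulating kinase complex mTORC1, and CreER is a Cre recombinase that acts once an oestrogen receptor ligand is given. Common myeloid progenitors (CMPs; 3 WT and 3 Rptor arrays) and granulocyte-macrophage progenitors (GMPs; 3 and 3) were lysed straight after sorting, and lineage-negative marrow cells (Lin- + M-CSF; 4 and 4) were cultured for 12 h with 10 ng/ml of M-CSF, the growth factor of the monocyte and macrophage lineage. The labels name neither the promoter of CreER nor whether or when Cre was activated, and they do not say whether WT mice carried Cre or whether each replicate is its own animal; a p-value here reflects the spread between arrays, part of which may be technical. In bulk RNA of this kind, fewer cells of a type and less RNA per cell cannot be told apart. The arrays include no uncultured lineage-negative cells and no culture without M-CSF. Starting cells, time in culture and M-CSF therefore cannot be told apart when Lin- + M-CSF cells are compared with CMPs or GMPs.

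Ifi200 proteins, also called PYHIN proteins, mostly pair an amino-terminal PYRIN domain, through which they bind each other and signalling partners, with carboxy-terminal HIN domains that bind DNA. Aim2 is the member with a settled role: it recognises double-stranded DNA in the cytosol and recruits the adaptor Pycard (ASC) and caspase-1 into an inflammasome, which matures interleukin-1 beta and interleukin-18 and opens pores through gasdermin D. Ifi204 has been linked to DNA sensing upstream of Sting1, to cell-cycle exit and to macrophage differentiation, Ifi205 and Mndal to nuclear control of transcription and proliferation, and Ifi207 and Ifi209 are less studied. Interferons raise many of these genes through the interferon-stimulated response element (ISRE), which is bound by interferon regulatory factors, among them Irf9 together with Stat2.

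In the RefSeq gene table of assembly GRCm38.p6 the cluster holds 14 Ifi200 genes among 19 genes over 682 kb, in the order Aim2, Ifi206, Ifi214, Ifi213, Ifi209, Ifi208, Ifi207, Ifi204, Ifi203-ps, Mndal, Ifi211, Ifi203, Ifi202b and Ifi205. RefSeq promoter windows, from 250 bases before to 50 after a gene's start, were given for 5 of the 6 genes (Ifi204 was not matched) and for 12 genes of the family, in 14 windows. The letters GAAANNGAAA, searched on both strands as the ISRE, were in 10 of the 14 family windows (71.4%) and in 3.44% of all 32851 promoter windows of the same length. Some of the family's windows are near copies of one another and so are not independent. The part before the start was 87.9% identical for Ifi208 and Ifi213 and 85% for Ifi207 and Ifi211, but 44.2% for Ifi205 and Ifi209. The composite letters GGAANNGAAA, of ETS and interferon regulatory factors, were in 0 of the 14 windows (2.72% of all windows), and TTCNNNGAA, the gamma-activated sequence (GAS), was in 1, that of Ifi202b (7.14%, against 8.3% of all windows). A composite match can share bases with an ISRE match.

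Of the genes examined, Ifi207, Mndal and Ifi205 had ISRE letters in their windows, and Ifi209 and Aim2 had none. Over the 250 bases before the start, in the first window of each gene, Ifi209 and Ifi214 are the most similar of the family, 94.4% identical over 251 aligned columns. The stretch of Ifi209 that aligns with the ISRE letters of Ifi214 differs from them at 1 of 10 bases, G1T, with the Ifi214 base first and positions counted from the 5′ end of the match. Upstream sequences of 4 genes are shown because they hold these differences; each is the part of the RefSeq window (GRCm38.p6) that lies before the gene record, 5′ to 3′ on the gene's strand, with the ISRE letters nearest to that start in capitals and, in Ifi209, the aligned bases in capitals.
Ifi209 (chr1:173630609-173630858, plus strand): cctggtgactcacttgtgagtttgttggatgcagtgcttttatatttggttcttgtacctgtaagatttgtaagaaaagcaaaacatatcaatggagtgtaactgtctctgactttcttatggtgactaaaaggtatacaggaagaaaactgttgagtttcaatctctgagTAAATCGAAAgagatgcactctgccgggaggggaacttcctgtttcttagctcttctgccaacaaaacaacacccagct
Ifi214 (chr1:173535958-173536207, minus strand): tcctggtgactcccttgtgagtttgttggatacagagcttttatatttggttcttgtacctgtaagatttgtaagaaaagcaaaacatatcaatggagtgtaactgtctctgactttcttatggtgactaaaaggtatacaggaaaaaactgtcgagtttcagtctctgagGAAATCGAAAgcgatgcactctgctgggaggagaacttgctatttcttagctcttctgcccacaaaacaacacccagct
Ifi207 (chr1:173741832-173742059, minus strand): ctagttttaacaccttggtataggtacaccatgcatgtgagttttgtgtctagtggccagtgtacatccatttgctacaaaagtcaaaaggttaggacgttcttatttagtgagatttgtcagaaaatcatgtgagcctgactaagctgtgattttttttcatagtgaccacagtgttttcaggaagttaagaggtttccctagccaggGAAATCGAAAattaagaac
Ifi205 (chr1:174031756-174032005, minus strand): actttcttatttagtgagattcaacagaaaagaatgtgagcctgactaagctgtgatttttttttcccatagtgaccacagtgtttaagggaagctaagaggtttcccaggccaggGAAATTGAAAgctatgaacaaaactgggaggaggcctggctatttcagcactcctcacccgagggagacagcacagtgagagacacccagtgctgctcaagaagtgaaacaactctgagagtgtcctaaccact
The capitals begin 79 bases before the start in Ifi209 and in Ifi214, 19 bases before it in Ifi207 and 134 bases before it in Ifi205. For Ifi207 the start of the promoter window lies inside the gene record, and the match begins 41 bases before that start. The window of Mndal held GAAATCGAAA beginning 36 bases before one annotated start, and TTTCTCTTTC, a match on the other strand, 54 bases before the other. Ifi205 held another match, on the other strand and beginning 23 bases after the start, which is not shown. A match of letters is a description, and its absence says only that these letters are not in the window.

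The medians of the arrays ranged from 4.76 to 4.91 (log2), and the lowest correlation between arrays of a group was 0.978. The probe set of Rptor read 8.20 to 8.45 in Rptor CMPs against 8.51 to 8.72 in WT CMPs (exact permutation p = 0.1, the smallest that 3 against 3 arrays allow), 8.85 to 9.25 against 9.17 to 9.44 in GMPs (exact permutation p = 0.5) and 6.83 to 7.06 against 6.95 to 7.34 in Lin- + M-CSF cells (exact permutation p = 0.143, where 0.0286 is the smallest); all were two-sided, and where its probes lie relative to the floxed part was not examined. The progenitor markers Kit, Cd34, Mpo, Elane, Prtn3, Ctsg and Flt3 averaged 10.3 to 11.3 on every array, in all 6 groups. Single markers moved in both directions. In Rptor against WT cells 1 was called higher and 4 lower in CMPs, 1 and 1 in GMPs and 1 and 0 after culture. Cd34 read 10.65 in WT and 9.57 in Rptor CMPs, and 10.26 and 8.89 in GMPs. Flt3 read 6.50 in WT and 7.79 in Rptor GMPs. In WT Lin- + M-CSF cells 0 were called higher and 6 lower than in WT CMPs.

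Genotype differences separated the 6 genes into 3 that were lower mainly in freshly sorted progenitors (Ifi209, Mndal and Aim2) and 3 whose WT signal was highest after M-CSF culture and whose genotype difference was most negative there (Ifi204, Ifi207 and Ifi205). In CMPs and in GMPs 4 of the 6 passed the threshold of adjusted p under 0.05 in the limma fit, all of them lower (Ifi209, Mndal, Aim2 and Ifi204), where 5.44% of all genes tested were called lower in CMPs and 7.53% in GMPs. In Lin- + M-CSF cells 5 of the 6 were called lower, all but Aim2, where 5.73% of all genes were. Since the genes were picked for these contrasts, the counts are no evidence of a family-wide change. The median difference of the 6 genes was -0.89 in CMPs, -1.13 in GMPs and -1.25 after culture, and that of all genes tested was -0.01, 0.02 and 0.01.

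**Figure D1:**
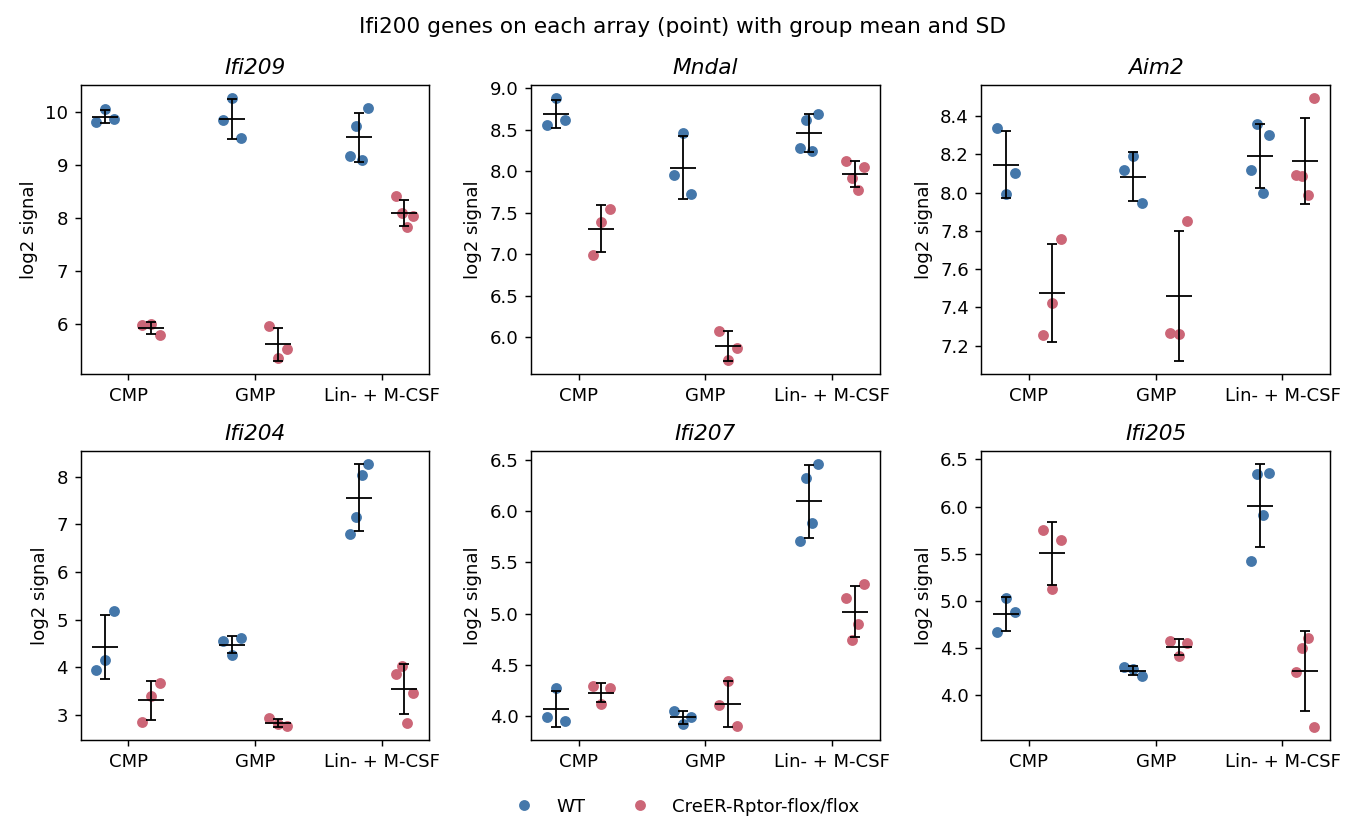
Log2 signal of the 6 Ifi200 genes on each array (points), by population on the x axis and genotype in colour, with the group mean and SD as bars; each panel has its own y axis, which does not start at 0. Ifi209, Mndal and Aim2 sit lower in Rptor CMPs and GMPs, and the WT Lin- + M-CSF arrays are the highest for Ifi204 and Ifi207.

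Ifi209 showed the widest separation in fresh progenitors. In CMPs it read 9.81, 10.06 and 9.88 on the WT arrays and 5.99, 6.00 and 5.80 on the Rptor arrays. In GMPs it read 9.86, 10.27 and 9.51 in WT cells and 5.97, 5.35 and 5.53 in Rptor cells. After M-CSF culture the values were 9.18, 9.74, 9.11 and 10.08 in WT cells and 8.42, 8.10, 7.84 and 8.04 in Rptor cells. The genotypes did not overlap in any population (all Rptor arrays lay below all WT arrays for 14.9% of all genes tested in CMPs, 16.2% in GMPs and 6.45% after culture), and the Rptor Lin- + M-CSF arrays lay between the WT arrays and the fresh Rptor arrays. The differences were -3.99 ± 0.22 (SE) in CMPs, 15.9-fold lower, -4.26 ± 0.22 in GMPs, 19.2-fold lower, and -1.43 ± 0.19 in Lin- + M-CSF cells, 2.69-fold lower. The Lin- + M-CSF difference was therefore smaller than that in CMPs by 2.56 ± 0.30 and than that in GMPs by 2.83 ± 0.30, whereas the CMP and GMP differences were 0.27 ± 0.32 apart.

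Mndal, whose product carries both a PYRIN and a HIN domain and is nuclear, followed the same order at a smaller scale. Its CMP values were 8.56, 8.88 and 8.62 in WT cells and 6.99, 7.39 and 7.54 in Rptor cells. Its GMP values were 7.95, 8.46 and 7.72 in WT cells and 6.08, 5.72 and 5.86 in Rptor cells. After M-CSF culture it read 8.28, 8.62, 8.24 and 8.70 in WT cells and 8.13, 7.92, 7.77 and 8.04 in Rptor cells. Again no Rptor array reached the lowest WT array of its population, but after M-CSF culture the gap was narrow, from 8.13 to 8.24. The differences were -1.38 ± 0.18 (2.61-fold lower) in CMPs, -2.15 ± 0.18 (4.45-fold lower) in GMPs and -0.49 ± 0.15 (1.41-fold lower) in Lin- + M-CSF cells, and the GMP difference exceeded that in CMPs by 0.77 ± 0.25. Mndal in Lin- + M-CSF cells was no longer called when that population was fitted alone, with the replicate block, with array weights, or without WT replicate 2 or 4 or Rptor replicate 2, 3 or 4.

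Aim2, the DNA sensor of the inflammasome, was called lower in fresh cells and not after culture. In CMPs the WT arrays read 8.34, 8.00 and 8.10 and the Rptor arrays 7.25, 7.42 and 7.76. In GMPs they read 8.12, 8.19 and 7.95 against 7.26, 7.26 and 7.85. After culture they read 8.12, 8.36, 8.00 and 8.30 against 8.09, 8.09, 7.99 and 8.50, with the genotypes mixed. The differences were -0.67 ± 0.17 (1.59-fold lower) in CMPs, -0.62 ± 0.17 (1.54-fold lower) in GMPs and -0.03 ± 0.15 in Lin- + M-CSF cells, where the 95% interval ran from -0.33 to 0.27. The closest approach of the genotypes in fresh cells was in GMPs, where replicate 3 of each genotype read 7.85 and 7.95. Aim2 was no longer called in CMPs without WT or Rptor replicate 1, and in GMPs without WT replicate 1 or 2 or Rptor replicate 1 or 2.

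Ifi204, the gene linked to macrophage differentiation, had its largest difference after M-CSF culture. WT Lin- + M-CSF arrays read 6.80, 7.15, 8.04 and 8.26 and Rptor arrays 3.85, 4.03, 2.84 and 3.47. In CMPs the values were 3.95, 4.15 and 5.19 in WT cells and 2.86, 3.39 and 3.67 in Rptor cells. In GMPs they were 4.55, 4.27 and 4.62 against 2.94, 2.81 and 2.77. The WT Lin- + M-CSF arrays stood above every other array, and the Rptor arrays of all 3 populations lay between 2.77 and 4.03, which overlaps the lowest WT CMP array (3.95). The differences were -4.01 ± 0.30 in Lin- + M-CSF cells, -1.12 ± 0.35 in CMPs and -1.64 ± 0.35 in GMPs, and the first exceeded the others by 2.89 ± 0.46 and 2.37 ± 0.46. All 6 fresh and 3 of the 4 cultured Rptor values lie under 3.86, the mean level below which genes were not tested. Detection above background was not assessed, so no fold is given for this gene. In CMPs Ifi204 was not called without a filter, with trended and robust moderation, after repeated quantile normalization, with the replicate block, or without WT replicate 2 or 3 or Rptor replicate 1 or 2.

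Ifi207, a less studied member, was near the filter level in fresh cells of both genotypes and higher after culture. Its CMP and GMP arrays all lay between 3.90 and 4.35. In Lin- + M-CSF cells the WT arrays read 5.71, 6.32, 5.88 and 6.46 and the Rptor arrays 5.15, 4.74, 4.90 and 5.29. Both genotypes stood above all fresh arrays there, without overlap between them. The differences were 0.16 ± 0.17 in CMPs, 0.13 ± 0.17 in GMPs and -1.07 ± 0.15 after culture, 2.10-fold lower.

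Ifi205 differed in opposite directions in fresh and in cultured cells, without overlap of the genotypes in either. In CMPs the WT arrays read 4.67, 5.03 and 4.88 and the Rptor arrays 5.75, 5.12 and 5.64. In GMPs they read 4.30, 4.27 and 4.21 against 4.58, 4.42 and 4.55. After culture they read 5.43, 6.35, 5.91 and 6.36 against 4.25, 4.51, 4.61 and 3.66. Each Rptor array was above all WT arrays in CMPs and in GMPs and below all of them after culture; 15.9% and 16.2% of all genes tested had every Rptor array above every WT array in CMPs and GMPs, and 6.45% had every one below after culture. The differences were 0.65 ± 0.23 in CMPs and 0.25 ± 0.23 in GMPs, neither of them called, and -1.75 ± 0.20 in Lin- + M-CSF cells. There 1 of the 4 Rptor values (3.66) lies under the filter level of 3.86, so no fold is given. In CMPs Ifi205 was called higher when the population was fitted alone, with array weights and without Rptor replicate 2.

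The remaining probe sets of the family were dim or not tied to a single gene. A probe set shared by Ifi211 and Ifi204 read 7.69, 7.61 and 7.65 in WT CMPs against 6.26, 5.89 and 6.53 in Rptor CMPs, and 7.59, 8.07 and 7.60 against 5.20, 4.73 and 5.12 in GMPs. In Lin- + M-CSF cells it read 9.08, 9.52, 9.32 and 9.77 against 7.32, 7.06, 6.73 and 7.0. It was lower on every Rptor array, by differences of -1.42 ± 0.20, -2.73 ± 0.20 and -2.39 ± 0.17 in a fit of all probe sets, and is assigned to neither gene. A probe set shared by Ifi203, LOC100862473 and Ifi203-ps differed by -0.84 ± 0.17 in CMPs, -1.45 ± 0.17 in GMPs and -0.28 ± 0.15 after culture, the order seen for Ifi209 and Mndal. Of 5 further genes with a probe set of their own, the pseudogene Ifi203-ps passed the filter and was not called in any genotype contrast (-0.05 ± 0.21, -0.45 ± 0.21 and -0.22 ± 0.19, with limma adjusted p of 0.947, 0.209 and 0.496).

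Ifi213, Ifi208, Ifi214 and Ifi202b did not pass the filter. Ifi213 read 2.97 to 3.29 in WT CMPs and 4.68 to 5.30 in WT Lin- + M-CSF cells, and its genotype difference after culture was -0.58 ± 0.18. Ifi208 likewise read 2.79 to 3.15 in WT CMPs and 4.02 to 5.05 in WT Lin- + M-CSF cells, with a genotype difference of -0.26 ± 0.22. Ifi214, the gene whose upstream sequence is most like that of Ifi209, had group means of 2.71 to 3.06 and differences of -0.12 ± 0.18, 0.05 ± 0.18 and 0.06 ± 0.16. Ifi202b had group means of 2.75 to 2.92. Family genes are near copies of each other in parts of their sequence, so a probe set may hold signal of a neighbouring gene; which transcripts each probe set binds was not tested.

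**Figure D2:**
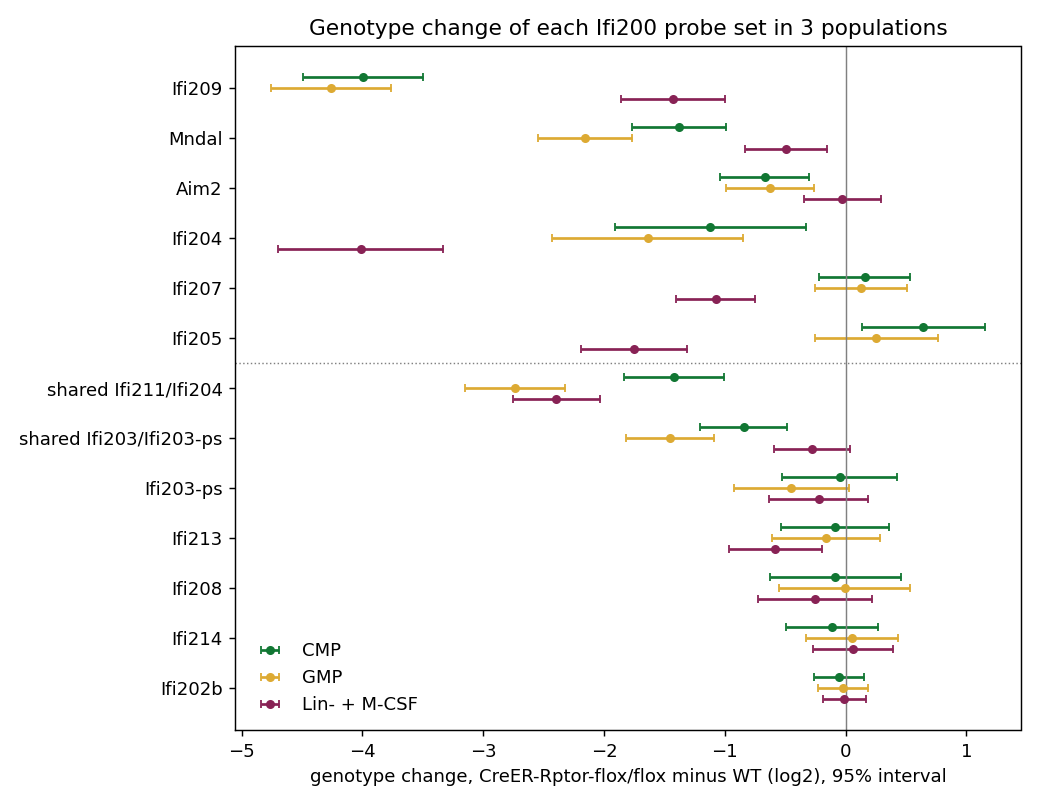
Difference Rptor minus WT in log2 signal (x axis) for each Ifi200 probe set in each population (colour), with 95% intervals from a limma fit of all probe sets; the dotted line separates the 6 genes from shared and other probe sets. Ifi209 lies near -4 in fresh progenitors and at -1.43 after culture, Ifi204 the other way round.

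Expression across WT populations was compared in 3 tested contrasts, which share the WT arrays with the genotype contrasts. These tests are therefore not independent of how the genes were chosen. Ifi204, Ifi207 and Ifi205 were higher in Lin- + M-CSF cells than in CMPs and GMPs, which differ in starting cells as well as in culture. Ifi209 and Aim2 did not pass the test between any of the populations. Against CMPs, 3 of the 6 genes were called higher in Lin- + M-CSF cells and 0 lower, where 19.6% of all genes tested were called higher and 36% lower. Against GMPs, 4 of the 6 were called higher and 0 lower, with Ifi204 among the called genes of both contrasts, where 20.3% of all genes were higher and 36.1% lower; 0 were lower in either contrast at an unadjusted limma p under 0.05 too. Between WT GMPs and WT CMPs 1 of the 6, Mndal, was called lower, where 4.35% of all genes were. The median differences of the 6 genes were 0.60, 1.08 and -0.07 in these contrasts, against -0.14, -0.14 and 0.00 for all genes tested.

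Ifi204 was higher in WT Lin- + M-CSF cells than in WT CMPs by 3.13 ± 0.33 and than in WT GMPs by 3.08 ± 0.33. Its mean over the other 16 arrays was 3.71, under the filter level, so it was among the genes tested only because of the group compared here; with no filter on dim genes its limma adjusted p was 6.50e-08 and 6.95e-08. Ifi207 was higher by 2.02 ± 0.16 (limma adjusted p = 1.06e-09) and 2.10 ± 0.16 (adjusted p = 5.02e-10), and Ifi205 by 1.15 ± 0.21 (2.22-fold; adjusted p = 9.65e-05) and 1.75 ± 0.21 (adjusted p = 4.32e-07). For these 3 genes all 4 cultured WT arrays lay above all 6 fresh WT arrays; 19.6% of all genes tested had every cultured array above every CMP array, and 20.2% above every GMP array. The calls of Ifi207 and Ifi205 were kept in every setting in which these genes were tested. Those of Ifi204 were kept too, but each setting with a filter admitted it through the group compared here, so this is no support. With the 50th percentile filter these 3 genes were not tested.

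For Ifi205 the order of WT means was Lin- + M-CSF cells (6.01 ± 0.44, SD, n = 4), CMPs (4.86 ± 0.18, n = 3) and GMPs (4.26 ± 0.05, n = 3), where the last step of -0.60 ± 0.23 did not pass (limma adjusted p = 0.101). It did pass with the 2 groups fitted alone (adjusted p = 0.00421) and with array weights (adjusted p = 0.0147). Ifi204 (4.43 ± 0.67 in CMPs and 4.48 ± 0.18 in GMPs) and Ifi207 (4.07 ± 0.18 and 3.99 ± 0.06) did not differ beyond their spread between fresh populations (limma adjusted p = 0.966 and 0.858).

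Mndal was highest in WT CMPs (8.69 ± 0.17, SD, n = 3), followed by Lin- + M-CSF cells (8.46 ± 0.23, n = 4) and GMPs (8.04 ± 0.38, n = 3). It was lower in GMPs than in CMPs by 0.65 ± 0.18 (limma adjusted p = 0.0219) and higher in Lin- + M-CSF cells than in GMPs by 0.42 ± 0.17 (adjusted p = 0.0378), whereas CMPs and Lin- + M-CSF cells were not told apart (-0.23 ± 0.17, adjusted p = 0.252). The first call was lost without WT CMP replicate 2 (limma adjusted p = 0.112) or WT GMP replicate 1 (0.0822) or 3 (0.168). The call against GMPs was lost with the 2 groups fitted alone (limma adjusted p = 0.0750) and without WT GMP replicate 1 (0.118) or 3 (0.244) or WT Lin- + M-CSF replicate 2 (0.0922) or 4 (0.109).

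Ifi209 had WT means of 9.92 ± 0.13 in CMPs, 9.88 ± 0.38 in GMPs and 9.53 ± 0.46 after culture, and neighbours in this order did not differ beyond their spread (limma adjusted p = 0.952 for GMPs against CMPs and 0.160 for Lin- + M-CSF cells against GMPs). Without WT Lin- + M-CSF replicate 4, which at 10.08 was the highest of its group, Ifi209 was lower in Lin- + M-CSF cells than in CMPs by 0.58 (adjusted p = 0.0176) and than in GMPs by 0.54 (limma adjusted p = 0.0264). Aim2 had WT means of 8.15 ± 0.18 in CMPs, 8.08 ± 0.13 in GMPs and 8.19 ± 0.17 after culture, with limma adjusted p between 0.577 and 0.897 in the 3 contrasts.

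The mean of markers of monocytes and macrophages moved with both contrasts, but not every marker did. The mean log2 signal of 7 such markers (Csf1r, Ly6c2, Ccr2, Cx3cr1, Adgre1, Cd68 and Fcgr1) was 8.24 to 8.36 on WT CMP arrays, 8.53 to 8.60 on WT GMP arrays and 9.66 to 9.94 on WT Lin- + M-CSF arrays, and 6 of the 7 were called higher in WT Lin- + M-CSF cells than in WT CMPs. Of all genes tested, 19.6% were called higher in that WT contrast. In Rptor cells the same mean was 7.56 to 7.79, 7.75 to 7.87 and 8.57 to 8.60. In these populations 3, 4 and 6 of the 7 were called lower, where 5.44%, 7.53% and 5.73% of all genes tested were. Fcgr1, which encodes the high-affinity IgG receptor of macrophages, read 8.32 ± 0.09 in WT and 4.70 ± 0.26 in Rptor Lin- + M-CSF cells (limma adjusted p = 1.65e-12). In CMPs it read 5.19 ± 0.31 in WT and 5.19 ± 0.33 in Rptor cells. Cd68 had higher means in Rptor than in WT CMPs (8.81 and 8.56) and GMPs (9.03 and 8.78), although 0 of the 7 were called higher there. Ly6c2 was lower in WT Lin- + M-CSF cells than in WT GMPs (12.0 and 12.6), where 6 of the 7 were called higher and 1 lower. The part of these 7 markers in the Ifi200 differences was not tested.

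Markers of other cells moved too. The mean of 6 neutrophil markers was 9.91 to 10.2 on WT and 8.16 to 8.27 on Rptor CMP arrays, 9.77 to 10.3 and 8.66 to 8.79 in GMPs, and 11.2 to 12.2 and 11.2 to 11.6 in Lin- + M-CSF cells. In GMPs 3 of the 6 were called lower and S100a8 was called higher, with means of 11.1 in WT and 11.6 in Rptor cells. The mean of 3 erythroid markers was 6.92 to 6.99 on WT and 7.90 to 8.52 on Rptor CMP arrays, 5.01 to 5.22 and 5.26 to 6.04 in GMPs, and 4.85 to 5.04 and 5.25 to 5.83 after culture. In WT Lin- + M-CSF cells 4 of 4 B cell, 3 of 6 T and NK cell and 2 of 6 dendritic cell markers were called higher than in WT CMPs, while 1 T and NK cell marker (Nkg7) and 1 dendritic cell marker were called lower, and 0, 1 and 1 of the same lists differed between genotypes there. On this scale no marker can be read as absent, and the part of these markers in the Ifi200 differences was not tested either.

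Across the 20 arrays the 6 genes did not vary as a single group. Ifi209 and Mndal had Pearson r of 0.88, and 0.78 once each group's mean was removed, so they also varied together among arrays of the same group. Ifi209 and Aim2 (r = 0.79) and Mndal and Aim2 (r = 0.78) had similar values over all arrays but 0.16 and 0.42 within groups. Ifi207 and Ifi204 (r = 0.75), Ifi204 and Ifi205 (r = 0.65) and Ifi207 and Ifi205 (r = 0.58) had 0.13, 0.17 and 0.25 within groups. Other pairs ran from -0.04 for Ifi205 and Aim2 and 0.08 for Ifi209 and Ifi205 to 0.61 for Mndal and Ifi204 and 0.64 for Ifi209 and Ifi204. Within groups Ifi209 had 0.48 with Ifi207 and 0.38 with Ifi205, above the pairs among Ifi204, Ifi207 and Ifi205. The genes therefore did not fall into separate sets by correlation. These values describe 20 arrays that share group means, and no test was made of them.

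The genes whose pattern over the 20 arrays was most like that of Ifi209, among 16631 compared, were Clec7a (r = 0.985), a receptor for fungal beta-glucans, Txndc16 (0.972), Tmem229b (0.964), Lgals1 (0.960), Bin1 (0.955), Irf8 (0.954), a transcription factor of the monocyte and dendritic lineages, Ly86 (0.945) and Ms4a6b (0.944). Clec7a read 9.13 ± 0.06 in WT and 7.14 ± 0.07 in Rptor CMPs, 9.57 ± 0.18 and 7.02 ± 0.11 in GMPs, and 9.07 ± 0.12 and 8.26 ± 0.16 in Lin- + M-CSF cells. As for Ifi209, the Rptor means were lowest in fresh cells and intermediate after culture. Mndal was most like Lgals1 (0.937), S100a10 (0.929) and Kif23 (0.925), and Aim2 most like Sp100 (0.901), a nuclear body protein that interferon induces, Slamf6 (0.885) and Chd9 (0.877).

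Ifi204 was most like Aif1 (r = 0.945), a marker of activated macrophages, Dock4 (0.941) and Pros1 (0.939), and Aif1 differed between genotypes by -0.42 ± 0.12 in CMPs, -1.28 ± 0.12 in GMPs and -2.44 ± 0.10 after culture. Ifi207 was most like Pgap1 (0.979), Id3 (0.966) and Rnd3 (0.960). Pgap1 read 3.95 ± 0.10 in WT CMPs, 7.65 ± 0.34 in WT and 5.72 ± 0.45 in Rptor Lin- + M-CSF cells. The closest genes to Ifi205 were less alike: Hpgd (0.887), Cd300ld3 (0.823) and Tbc1d9 (0.806).

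The genes beside the cluster were examined in the same limma fit. Of the 15 tested genes on each side, 30 in all, 1 was called higher and 3 lower in CMPs, 0 and 4 in GMPs and 0 and 3 after culture, with median differences of -0.02, -0.02 and -0.11. Their differences ran from -1.06 to 0.94 in CMPs, -1.05 to 0.59 in GMPs and -0.88 to 0.42 after culture. At an unadjusted p under 0.05, 2 were higher and 6 lower in GMPs, and 1 was higher and 6 lower after culture. Called in either direction were 4, 4 and 3 of the 30, near the 11.4%, 11.9% and 12.5% of all genes tested that were called. By direction, 3, 4 and 3 were lower, where 5.44%, 7.53% and 5.73% of all genes were. Higher were 1, 0 and 0, where 6.01%, 4.37% and 6.82% of all genes were. Kmo, which encodes a tryptophan-degrading enzyme, was called lower in all 3 populations (-1.06 ± 0.19, -0.99 ± 0.19 and -0.77 ± 0.17; limma adjusted p = 0.000579, 0.00132 and 0.00412), and Hmga2-ps1 and the transcriptional repressor gene Zbtb18 in CMPs and GMPs. Olfr248 was called higher in CMPs (0.94 ± 0.26), Chml lower in GMPs (-0.66 ± 0.20), and Fcer1a, a subunit of the IgE receptor, and Opn3 lower in Lin- + M-CSF cells (-0.88 ± 0.21 and -0.40 ± 0.13). The CMP count fell from 4 to 2 without WT replicate 2 or 3 or Rptor replicate 1 or 2, and the GMP count from 4 to 2 without Rptor replicate 1.

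**Figure D3:**
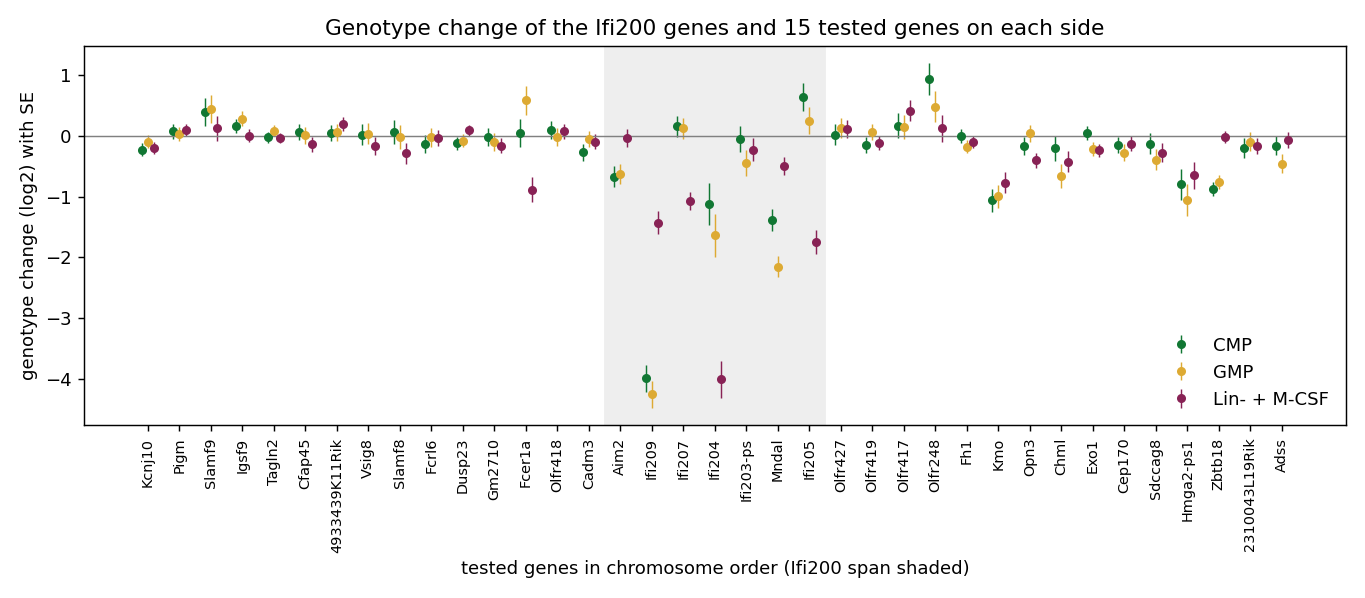
Difference Rptor minus WT in log2 signal, with SE bars, for the tested genes of the Ifi200 cluster (shaded) and the 15 tested genes on each side, in chromosome order on the x axis (not to distance). The cluster holds differences down to -4.26, and the flanking genes stay between -1.06 and 0.94.

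Inflammasome genes were counted in a list that holds the genes with which Aim2 acts, genes of other inflammasomes and Sting1. This list and the lists that follow were chosen with earlier results of these data known. Their counts are therefore a description and no independent evidence. Of 12 tested, 0 were called higher and 5 lower in CMPs, 1 and 5 in GMPs and 0 and 5 after culture, against 6.01%, 4.37% and 6.82% of all genes called higher and 5.44%, 7.53% and 5.73% called lower. In CMPs 0 were higher at an unadjusted limma p under 0.05 either, and after culture 1 was. The list's medians were -0.42, -0.33 and -0.32. Casp1, the protease of the inflammasome, fell by 1.00 ± 0.14 in CMPs (limma adjusted p = 2.04e-05) and by 0.81 ± 0.14 in GMPs (adjusted p = 0.00027). Nlrc4, a gene of another inflammasome, fell by 1.04 ± 0.13 and 0.77 ± 0.13 in these populations (limma adjusted p = 6.79e-06 and 0.000269). Mefv, which encodes pyrin, fell in all 3 populations (-1.13 ± 0.17, -0.97 ± 0.17 and -0.51 ± 0.15). Sting1, the adaptor of cytosolic DNA sensing, did so too (-0.59 ± 0.16, -0.63 ± 0.16 and -0.45 ± 0.14). Sting1 is counted in this list and in that of nucleic acid sensing.

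The pore-forming gasdermin gene Gsdmd fell in CMPs (-0.45 ± 0.11, limma adjusted p = 0.00782) and was not called in GMPs or after culture (-0.06 ± 0.11 and 0.15 ± 0.09), and Casp4, the noncanonical inflammatory caspase, rose in GMPs (0.72 ± 0.20, adjusted p = 0.0224). Nlrp3, the sensor of the best-known inflammasome, fell in GMPs (-1.58 ± 0.23) and Lin- + M-CSF cells (-0.78 ± 0.20). Il1b, the cytokine that caspase-1 matures, fell by 2.58 ± 0.35 in Lin- + M-CSF cells (limma adjusted p = 4.32e-05), and Nlrp1b fell there by 0.42 ± 0.12. The adaptor Pycard was not called in any population (-0.23 ± 0.13, -0.08 ± 0.13 and 0.28 ± 0.12). The Lin- + M-CSF count of 5 was 3 without WT replicate 1, 2 or 4 or Rptor replicate 2, and 2 without Rptor replicate 3 or 4; it was 3 with the replicate block, with array weights and with the 50th percentile filter, and 1 with that population fitted alone.

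Genes of nucleic acid sensing other than Aim2 went in both directions. Their list holds cytosolic and endosomal sensors and also genes that are not sensors, such as Sting1, Ikbke and Samhd1. Of 13 tested, 1 was called higher and 5 lower in CMPs, 1 and 6 in GMPs and 2 and 4 after culture. Of all genes tested, 6.01%, 4.37% and 6.82% were called higher and 5.44%, 7.53% and 5.73% lower. The list's medians were -0.21, -0.41 and -0.05. Tlr9, the endosomal DNA receptor, fell in each population (-0.85 ± 0.17, -1.01 ± 0.17 and -0.84 ± 0.15), as did Zbp1, a sensor of Z-form nucleic acid (-0.74 ± 0.21, -0.92 ± 0.21 and -1.15 ± 0.18), and the nucleotide hydrolase gene Samhd1 (-0.36 ± 0.10, -0.64 ± 0.10 and -0.66 ± 0.08). Tlr7, the endosomal receptor for single-stranded RNA, rose in CMPs (1.01 ± 0.16, limma adjusted p = 0.000101) and GMPs (1.12 ± 0.16, adjusted p = 3.71e-05). Cgas, the enzyme that senses cytosolic DNA upstream of Sting1, fell in GMPs (-0.57 ± 0.14), Ifih1 fell in GMPs (-0.48 ± 0.15), and Ddx58 rose in Lin- + M-CSF cells (0.41 ± 0.11). The kinase gene Ikbke fell in CMPs (-0.58 ± 0.14) and rose in Lin- + M-CSF cells (0.57 ± 0.12). The count of 5 in CMPs was 1 without WT replicate 1 or 3 and 3 without Rptor replicate 2, and that of 6 in GMPs was 3 without WT replicate 2.

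Interferon genes themselves were not called: of 7 listed, 4 were tested and 0 passed in any population in the limma fit; at an unadjusted p under 0.05, 1 was lower in CMPs and 0 differed in GMPs or after culture. Among genes of interferon receptors and their signalling 18 were tested. In CMPs 1 was called higher and 5 lower, in GMPs 2 and 5, and after culture 0 and 5. At an unadjusted limma p under 0.05, 2 were higher after culture. Of all genes tested, 6.01%, 4.37% and 6.82% were called higher and 5.44%, 7.53% and 5.73% lower. The list's medians were -0.18, -0.24 and -0.10. Irf8 fell by 1.88 ± 0.18, 2.76 ± 0.18 and 0.54 ± 0.16 (limma adjusted p = 2.67e-07, 1.19e-09 and 0.0249), and Stat2, which acts with Irf9 at the ISRE, fell by 0.40 ± 0.12, 0.40 ± 0.12 and 0.35 ± 0.10. Irf9, which binds the ISRE letters, fell in GMPs (-0.57 ± 0.12), and Usp18, a feedback inhibitor of interferon signalling, fell in GMPs and Lin- + M-CSF cells (-1.18 ± 0.15 and -0.41 ± 0.13). Spi1, which encodes the myeloid factor PU.1, fell in CMPs (-0.58 ± 0.12), together with Irf1 (-0.48 ± 0.13) and the receptor gene Ifnar2 (-0.30 ± 0.09).

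Ifngr2, a chain of the interferon gamma receptor, fell in GMPs and Lin- + M-CSF cells (-0.42 ± 0.11 and -0.41 ± 0.09), and Irf7 in Lin- + M-CSF cells (-0.90 ± 0.16). The genes that rose were Socs1, an inhibitor of cytokine signalling, in CMPs (0.46 ± 0.15) and Ifngr1 and Stat3 in GMPs (0.40 ± 0.12 and 0.58 ± 0.11). The count of 5 in CMPs was 2 without WT replicate 1 or Rptor replicate 2 and 3 without WT replicate 2. In Lin- + M-CSF cells it was 3 without WT replicate 1 or 4 or Rptor replicate 2, 2 without WT replicate 2 or Rptor replicate 4, 3 with that population fitted alone, and 2 with array weights.

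Outside the cluster 40 interferon-stimulated genes were tested. In CMPs 0 were called higher and 14 lower, in GMPs 0 and 14, and after culture 0 and 10. Of all genes tested, 6.01%, 4.37% and 6.82% were called higher and 5.44%, 7.53% and 5.73% lower. The list's medians were -0.32, -0.36 and -0.28. At an unadjusted limma p under 0.05, 2, 1 and 2 were higher. Oasl2, of the oligoadenylate synthetase family, fell by 1.46 ± 0.16, 1.59 ± 0.16 and 0.98 ± 0.14 (limma adjusted p = 1.68e-06, 4.97e-07 and 5.75e-05). Trim30a (-1.07 ± 0.20, -1.01 ± 0.20 and -0.64 ± 0.17), Rtp4 (-0.64 ± 0.15, -1.05 ± 0.15 and -0.58 ± 0.13) and Parp14 (-0.59 ± 0.10, -0.996 ± 0.104 and -0.37 ± 0.09) were also called lower in all 3 populations. The immunoproteasome gene Psmb9 and Sp100 were called lower in CMPs (-0.63 ± 0.09 and -0.61 ± 0.10) and GMPs (-0.71 ± 0.09 and -0.47 ± 0.10) but not in Lin- + M-CSF cells (-0.11 ± 0.08 and -0.19 ± 0.08). The CMP count was 9 without WT replicate 1 or Rptor replicate 2, and the Lin- + M-CSF count was 6 with that population fitted alone.

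**Figure D4:**
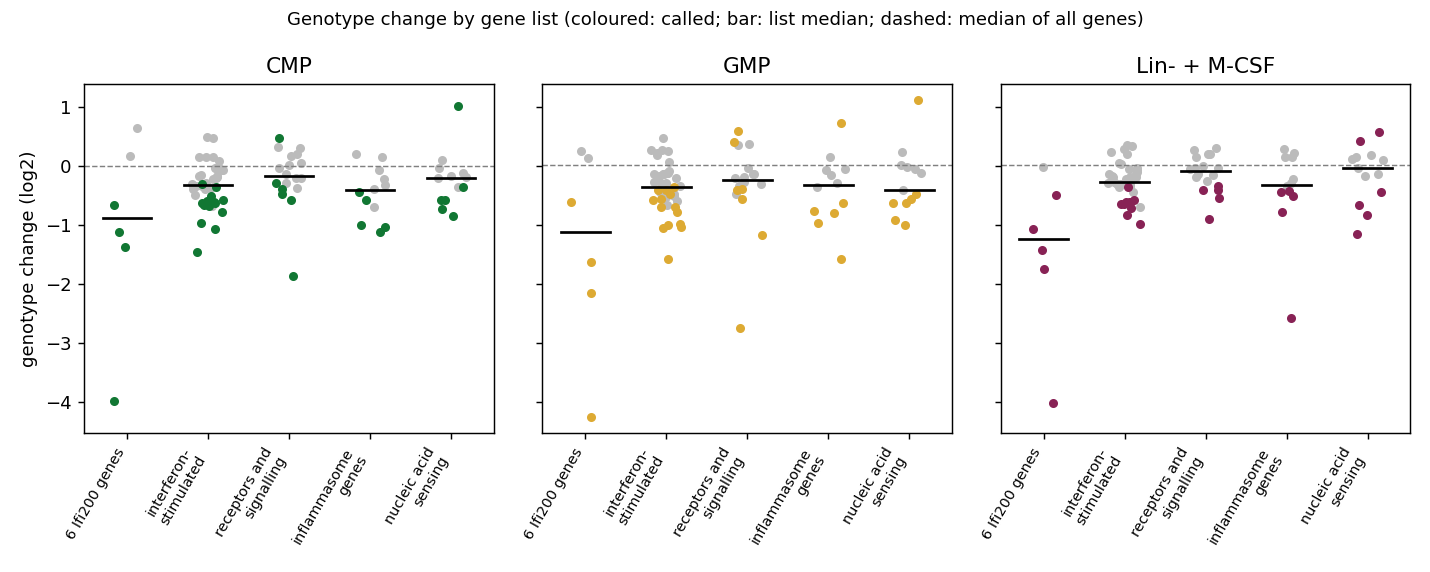
Difference Rptor minus WT in log2 signal (y axis) for the genes of each list, with a panel for each population; coloured points passed an adjusted p of 0.05, bars are list medians and the dashed line is the median of all genes tested. In the list of interferon-stimulated genes 14, 14 and 10 points are called, all below 0.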

How the data were processed

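The values are log2 signals of 41345 probe sets on 20 arrays, deposited by the authors in 1 table. RMA, Partek 6.6 and limma are named in the submitters' processing notes, with no roles; the sources used here do not give a genome build or say whether all arrays were normalized together. RMA sets the arrays to 1 distribution, so a change shared by most transcripts would be removed. No scanner files were used, and detection above background was therefore not examined.

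In the platform annotation 23521 probe sets had 1 symbol, 1814 several and 16010 none. The highest-mean probe set of each of 22180 genes was kept, and the 16638 whose mean reached the 25th percentile (log2 3.86) were tested with limma 3.58.1 in R 4.3.3, in 1 fit of 6 group means (14 residual degrees of freedom), with Benjamini-Hochberg adjustment over all genes tested and a threshold of 0.05. Differences are log2 with the SE of the model. The script was tested on simulated data.

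The Ifi200 genes and the gene lists were chosen with earlier results of these data known. Every Ifi200 gene is named; so are the 8 genes most correlated with Ifi209 and the 3 most correlated with each other member, up to 6 genes per list of smallest p in CMPs or GMPs, and called genes beside the cluster. Il1b, Nlrp1b, Casp4, Ifih1, Ddx58, Irf1, Irf7, Ifnar2, Ifngr1, Socs1, Stat2, Pycard, Ifi27, Gbp5, Gbp7, Rsad2, Slfn5, Parp12 and the markers named with values were chosen after their values were seen. Promoters come from RefSeq (GRCm38.p6), aligned with Biopython 1.88 under Python 3.11.15; figures used matplotlib 3.10.9. Alternatives were other filters, the mean of probe sets, groups fitted alone, the replicate block, array weights, trended and robust moderation, repeated quantile normalization, median centring and each array left out.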

Additional observations from a re-analysis of the deposited data

Results flagged for a closer look

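Ifi205 was the only one of the 6 Ifi200 genes whose arrays separated by genotype in opposite directions. Its difference, Rptor minus WT, in Lin- + M-CSF cells minus that in CMPs was -2.40, and minus that in GMPs -2.01. Every Rptor array lay above every WT array in CMPs and GMPs and below every one after culture. Of all genes tested, 15.9% in CMPs and 16.2% in GMPs separated upward in this way, and 6.45% downward after culture. Neither fresh difference of Ifi205 was called (0.65 ± 0.23 in CMPs and 0.25 ± 0.23 in GMPs), whereas that after culture was (-1.75 ± 0.20). The difference between populations was not tested because the gene had been picked on these contrasts.

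For genes outside the cluster the difference between genotype effects was tested as an interaction in the same limma fit, with adjusted p over all genes. Only list genes that passed the threshold are named below, and the share of all genes that passed is not given. The lists were chosen with earlier results of these data known. The adjusted p-values below are therefore a description and no independent evidence. Irf8 was lowered less in Lin- + M-CSF cells than in CMPs, by 1.33 (limma adjusted p = 0.00087), and than in GMPs, by 2.21 (adjusted p = 3.95e-06). Tlr7 went the other way, by -1.16 against CMPs (limma adjusted p = 0.000926) and -1.26 against GMPs (adjusted p = 0.000688).

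Among inflammasome genes, Casp1 differed between Lin- + M-CSF cells and CMPs by 0.78 (limma adjusted p = 0.00774), Gsdmd by 0.60 (0.0102) and Nlrc4 by 0.74 (0.0072). Il1b differed by -2.25 against CMPs (limma adjusted p = 0.0105) and by -2.22 against GMPs (0.0189). Ikbke differed by 1.15 (limma adjusted p = 0.000413) and Ddx58 by 0.60 (0.0304) against CMPs.

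Psmb9 differed by 0.53 against CMPs (limma adjusted p = 0.00549) and by 0.60 against GMPs (0.00319). Sp100 differed by 0.42 against CMPs (limma adjusted p = 0.0457), Parp14 by 0.63 against GMPs (0.0091) and Usp18 by 0.77 against GMPs (0.0309). Ifi27 differed by 0.63 against CMPs (limma adjusted p = 0.0425) and by 0.85 against GMPs (0.0101), and Gbp5 and Gbp7 by 1.37 and 1.01 against GMPs (0.00857 and 0.0314). In the other direction, Rsad2 and Slfn5 differed by -0.58 and -0.81 against CMPs (limma adjusted p = 0.0246 and 0.0122) and Parp12 by -0.89 against GMPs (0.0413). In none of the groups of 4 arrays did 1 array of an Ifi200 gene stand apart by Dixon's criterion; groups of 3 cannot be examined in this way.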

How the results depend on the processing

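No member's difference changed sign where it was called. With the 50th percentile filter 3 members were left to test (Ifi209, Mndal and Aim2), so that 2 were called in the Lin- + M-CSF genotype contrast, 0 between WT Lin- + M-CSF cells and CMPs and 1 against GMPs. With the groups of a comparison fitted alone, 899 genes were called for cultured cells and 2852 for WT GMPs against CMPs, with 2 members (Ifi205 and Mndal) in the latter. With array weights the called genes numbered 3048 for CMPs, 5328 for GMPs, 1316 for cultured cells and 3995 for WT GMPs against CMPs, with 2 members in the last; the cause was not tested. Leaving out 1 array gave 1229 to 1767 genes for CMPs, 1183 to 2086 for GMPs, 1634 to 1910 for cultured cells, 803 to 1551 for WT GMPs against CMPs, 8272 to 8963 between WT Lin- + M-CSF cells and CMPs and 8348 to 9077 against GMPs, from fewer samples. Members called then were, in the same order, 2 to 4 (2 without Rptor CMP replicate 1), 3 to 4, 4 to 5, 0 to 1, 3 to 4 and 3 to 4. Ifi209 and Mndal were the members called in CMPs in every setting. Deviations of same-numbered arrays correlated at -0.34 to 0.12 between genotypes, and at 0.005 to 0.185 between CMPs and GMPs of the same genotype. Differently numbered arrays were not compared, so these values cannot settle whether replicate numbers pair the arrays. A replicate block gave 1602, 1529 and 1571 called genes for CMPs, GMPs and cultured cells, and 3, 4 and 4 members; between populations this block cannot be estimated. Of the list counts, array weights gave 23 interferon-stimulated genes and 9 signalling genes lower in GMPs, with 9 called beside the cluster, and median centring gave 3 signalling genes lower in CMPs. The number of arrays limits the precision, and detection above background was not examined for dim probe sets such as Ifi207 and Ifi204 in fresh cells.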
